A study of Mus musculus with 6 samples.

Results

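The 10 genes described here encode cytosolic heat shock proteins and the co-chaperones that work with them: Hspa1a, Hspa1b, Hspa8, Hsph1, Dnaja1, Dnajb1, Bag3, Hspb1, Hspb8 and Hsp90aa1. They were taken as every probe set, the array feature that reads 1 stretch of transcript, whose gene symbol in the platform annotation is exactly one of these names. This gave 95 of the 269751 probe sets on the array and 10 of the 23152 genes with a probe set of their own. Expression was measured in neural stem cells grown from mouse embryonic cortex at day 14.5. For each of 3 cell lines, numbered 2, 7 and 8, one culture was given an adenovirus carrying green fluorescent protein (Ad-GFP, the control) and another an adenovirus carrying Cre recombinase (Ad-Cre), which switches on mutant IDH. IDH1-R132H, the mutation that the series names, alters the active site of the cytosolic isocitrate dehydrogenase. Both viruses were used at 100 MOI, that is 100 infectious units per cell, and cells were washed and returned to complete medium 24 hours after infection. Each culture gave 1 array, so every value rests on 3 Ad-Cre and 3 Ad-GFP arrays, each pair from a different line. No array carries Cre without the mutant allele, so what Cre does and what the mutant does cannot be told apart. The sources used here do not give the mouse strain, the promoter of either virus or the time of harvest.

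Chaperones of the HSP70 family bind short exposed stretches of unfolded proteins and release them in a cycle driven by ATP. J-domain proteins deliver clients and start ATP hydrolysis, and nucleotide exchange factors such as Bag3 and Hsph1 reopen the cycle. Small heat shock proteins hold unfolding proteins without ATP, and HSP90 finishes the folding of kinases and steroid receptors. Under proteotoxic stress the transcription factor HSF1 raises the inducible members, whereas Hspa8, the constitutive HSP70, is made at all times. In the brain, Bag3 and Hspb8 form a complex that sends damaged proteins to autophagy.

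The arrays had similar overall signal, with medians of all probe sets between 8.38 and 8.43 log2 units and lower quartiles between 6.57 and 6.60. One array stood apart, the Ad-Cre array of line 2. Across genes it correlated with the other 5 arrays at r between 0.969 and 0.976, whereas those 5 correlated with each other at 0.988 to 0.996. Genes are not independent replicates. The mean signal of 9 genes of dividing cells was lower with Ad-Cre in each line, at 11.94 and 9.34 with Ad-GFP and Ad-Cre in line 2, 11.92 and 11.59 in line 7, and 11.99 and 11.62 in line 8. All 9 genes were lower in all 3 lines, against 16.2% of all genes. On the Ad-Cre array of line 2 Gfap, an astrocyte filament, read 11.27 against 7.48 to 8.33. The astrocyte markers did not move together, as 4 of 8 were higher with Ad-Cre in line 2 (55.3% of all genes). In all 3 lines 3 of 8 were lower (16.2% of all genes) and 0 higher (22.1%). Neural stem cell markers were bright, with a mean over 10 genes of 11.86 to 11.97 with Ad-GFP and 11.66 to 11.79 with Ad-Cre. Of these 10 genes, 4 were lower in all 3 lines (16.2% of all genes) and 2 higher (22.1%). Means of microglial markers (6.93 to 7.09) and endothelial markers (6.49 to 6.80) lay near the lower quartile of all probe sets. Neuronal markers averaged 9.34 to 9.47 with Ad-GFP and 8.59 to 8.90 with Ad-Cre, and oligodendrocyte lineage markers 9.95 to 9.97 and 9.38 to 9.54. The lower oligodendrocyte mean rests mostly on Pdgfra (-2.72), and the list median was -0.093. In all 3 lines 4 of 8 neuronal and 2 of 7 oligodendrocyte genes were lower with Ad-Cre (16.2% of all genes), and 1 and 0 were higher (22.1%). Astrocyte markers ranged from 9.76 to 9.97 with Ad-GFP and from 8.93 to 10.05 with Ad-Cre, highest in line 2. The rise of the mean in line 2 rests on Gfap (3.79), and the list median there was 0.046. Fibroblast and mural markers averaged 7.28 to 7.54 with Ad-GFP and 7.11 to 7.13 with Ad-Cre. That mean rests on Acta2 (-2.35) and Pdgfrb (-0.61), and the other 5 of 7 averaged higher, with a list median of 0.088. The labels of line 8 disagree with each other, since a description mark there runs opposite to the title and the transduction label, which were followed here. Counts with that line's labels exchanged close the account. The part that these shifts have in the values of the chaperone genes was not tested.

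HSF1 binds heat shock elements, which are repeats of GAA in alternating orientation. The 250 bases before the annotated gene start are shown for the members with the largest differences between the viruses, and for Hspb1, which holds the most matches. They are RefSeq sequences of the mouse build GRCm38.p6, in which 8 of the 10 members have an entry, and Hspa8 and Hsp90aa1 have none in the table used. Capitals mark 2 neighbouring repeats, GAANNTTC or TTCNNGAA, searched on both strands (each reads the same on either strand).
Hspa1b, chr17:34959239-34959488, minus strand: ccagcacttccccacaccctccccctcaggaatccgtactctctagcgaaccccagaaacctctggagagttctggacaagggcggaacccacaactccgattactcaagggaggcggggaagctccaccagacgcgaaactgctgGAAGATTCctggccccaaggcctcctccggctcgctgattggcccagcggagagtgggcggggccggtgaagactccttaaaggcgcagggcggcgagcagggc
Hspa1a, chr17:34972157-34972406, minus strand: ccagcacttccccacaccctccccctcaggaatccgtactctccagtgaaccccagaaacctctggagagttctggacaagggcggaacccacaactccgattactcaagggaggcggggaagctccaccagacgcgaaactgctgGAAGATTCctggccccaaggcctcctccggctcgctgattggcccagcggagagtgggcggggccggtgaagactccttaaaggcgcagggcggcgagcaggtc
Hspb1, chr5:135887669-135887918, plus strand: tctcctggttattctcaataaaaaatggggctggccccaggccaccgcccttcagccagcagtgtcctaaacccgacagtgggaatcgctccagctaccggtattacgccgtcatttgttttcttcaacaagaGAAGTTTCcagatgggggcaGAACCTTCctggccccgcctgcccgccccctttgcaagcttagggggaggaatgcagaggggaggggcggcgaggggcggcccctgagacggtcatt
Hspb8, chr5:116422865-116423114, minus strand: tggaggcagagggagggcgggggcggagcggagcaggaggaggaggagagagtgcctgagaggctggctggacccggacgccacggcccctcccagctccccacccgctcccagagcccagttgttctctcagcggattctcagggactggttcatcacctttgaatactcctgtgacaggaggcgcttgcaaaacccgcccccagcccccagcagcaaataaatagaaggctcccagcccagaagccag
Bag3, chr7:128523333-128523582, plus strand: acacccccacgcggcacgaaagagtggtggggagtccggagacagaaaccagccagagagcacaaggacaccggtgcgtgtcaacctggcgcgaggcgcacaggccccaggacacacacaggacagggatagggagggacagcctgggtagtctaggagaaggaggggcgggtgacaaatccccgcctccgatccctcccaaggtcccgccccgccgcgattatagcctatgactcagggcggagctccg

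The Hspa1b and Hspa1a windows share 247 of 250 bases. They differ at T44C, C47T and G249T, where the first base is that of Hspa1b and positions count from 1 at the 5′ end of the window. Both hold the same match 104 bases before the gene start, and in Hspb1 the matches begin 117 and 97 bases before it. Hsph1 and Dnaja1 also hold 1 match each in at least one of their windows, which makes 5 of 8 members, while Bag3, Hspb8 and Dnajb1 hold none. The same search finds a match upstream of 14.5% of the 27025 genes in the table, and of 17.6% of 74 genes of the other chaperone lists described below. The longer form with 3 repeats, GAANNTTCNNGAA on either strand, is found in 0 of 8 members and 0.514% of all genes. Of the 74 listed genes 3 hold it (4.05%). No mismatch in a repeat was allowed, so elements with an altered repeat are not counted. A match describes letters in this window and says nothing of binding.

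All 10 members averaged higher with Ad-Cre than with Ad-GFP, as did 56.4% of all genes, and none of the 10 passed the test across all genes. The mean ratio ran from 1.02-fold for Hsp90aa1 to 2.75-fold for Hspb8. Differences are given as Ad-Cre minus Ad-GFP in log2 units, where 1 unit is a doubling, as the mean over the lines with its standard error. That error comes from limma, which also draws on the variance of all genes. The 4 largest were those of Hspb8 (1.46 ± 0.65), Bag3 (0.92 ± 0.32), Hspa1b (0.74 ± 0.18) and Hspa1a (0.52 ± 0.19). The other 6 members lay between 0.032 and 0.21. In limma, blocked by line, adjusted p ran from 0.233 for Hspa1b to 0.918 for Hsp90aa1, and 0% of all genes (0 of 23152) had an adjusted p under 0.05. At an unadjusted p under 0.05 (limma), 12.6% of all genes passed in either direction. On that looser rule 3 of the 10 members were higher, Hspa1b, Bag3 and Hspa1a, against 7.04% of all genes, and 0 were lower, against 5.58%. In every line 8 of 10 were higher, against 22.1% of all genes, the exceptions being Hspa8 and Hsp90aa1. For 7 of 10, every Ad-Cre array lay above every Ad-GFP array, against 12% of all genes, and for 0 of 10 below, against 8.89%. Line by line, 9 were higher in line 2 (55.3% of all genes), 10 in line 7 (55.4%) and 9 in line 8 (52%). The median difference of the members was 0.21 and that of all genes 0.025. The members were chosen with these data known, so the counts describe them and do not set them apart from other genes.

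**Figure D1:**
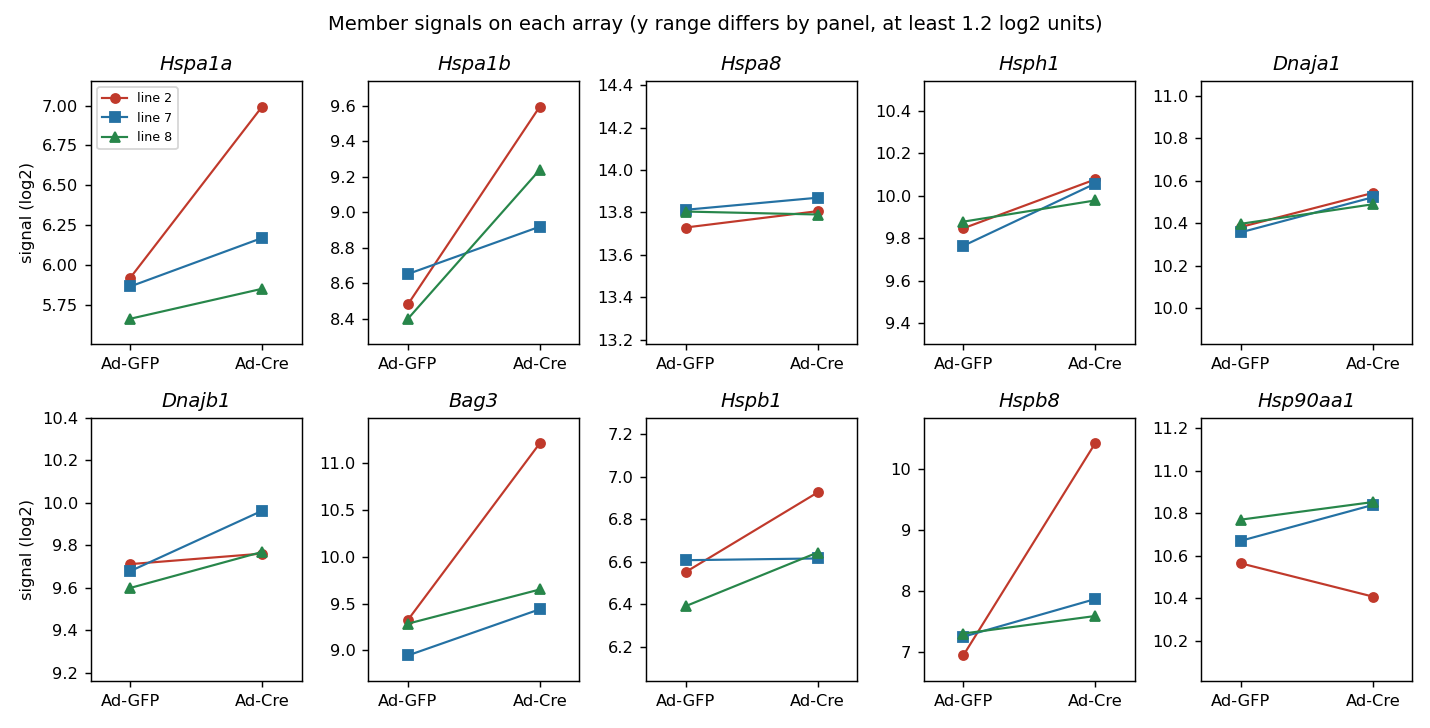
Signal of each member (log2, y axis, with a range of its own in each panel) on the Ad-GFP and Ad-Cre arrays, 1 point per array, joined within each cell line. The steepest lines are those of line 2 in Hspb8, from 6.94 to 10.42, and Bag3, from 9.33 to 11.22, and Hspa8 is nearly flat at 13.73 to 13.87.

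Hspb8, the small heat shock protein that partners Bag3, had the largest difference of the members and ranked at 29 of 23152 genes by mean difference. With Ad-GFP it read 6.94, 7.25 and 7.30 log2 units in lines 2, 7 and 8, and with Ad-Cre 10.42, 7.86 and 7.59. All Ad-Cre arrays lay above all Ad-GFP arrays, and line 2 was far above the other lines with Ad-Cre only. The differences were 3.47, 0.62 and 0.29, or 11.1-fold in line 2, and their mean had an adjusted p of 0.448 (limma). The mean rested on line 2, and without that line it was 0.45 ± 0.13 (adjusted p = 0.117). The Ad-Cre array of line 2 is the one with low signals of dividing cells and high Gfap given above.

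Bag3 is the nucleotide exchange factor that links HSP70 to Hspb8. It read 9.33, 8.95 and 9.29 with Ad-GFP in lines 2, 7 and 8, and 11.22, 9.44 and 9.65 with Ad-Cre. The groups did not overlap, and the order of the lines was the same in both, with line 7 lowest and line 2 highest. The mean difference was 1.89-fold (0.92 ± 0.32; limma adjusted p = 0.363), made of 1.89, 0.49 and 0.37 in lines 2, 7 and 8. Without line 2 it was 0.43 ± 0.10, with an adjusted p of 0.0612, the smallest that any member reached in any of the 12 alternatives run.

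Hspa1b is the stress-inducible HSP70, a neighbour of Hspa1a with a nearly identical protein. It read 8.48, 8.65 and 8.40 with Ad-GFP in lines 2, 7 and 8, and 9.60, 8.92 and 9.24 with Ad-Cre. Every Ad-Cre array was above every Ad-GFP array, and line 7, the highest with Ad-GFP, was the lowest with Ad-Cre. The mean difference was 1.67-fold (0.74 ± 0.18; adjusted p = 0.233, limma), from line values of 1.11, 0.27 and 0.84. Of the 4 members with the largest differences, this was the one whose mean moved least without line 2, to 0.55 ± 0.15 (adjusted p = 0.101).

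Hspa1a, the second inducible HSP70 gene, had a dimmer gene signal than Hspa1b. Its signals were 5.92, 5.87 and 5.66 with Ad-GFP and 6.99, 6.17 and 5.85 with Ad-Cre in lines 2, 7 and 8. Each line was higher with Ad-Cre, but the line 8 Ad-Cre array lay below 2 of the Ad-GFP arrays, so the groups overlapped. The mean difference was 0.52 ± 0.19 (limma adjusted p = 0.381) and without line 2 it was 0.25 ± 0.11. Apart from the line 2 Ad-Cre array, these gene signals lay under the lower quartile of all probe sets (6.59). Its 3 probe sets disagreed, at 1.38, 0.60 and -0.17. The brightest of them, probe set 17344134, read 8.0, 8.47 and 7.80 with Ad-GFP and 9.62, 9.35 and 9.42 with Ad-Cre. That probe set was 1.38 ± 0.24 higher, with no overlap between the groups (limma adjusted p over all probe sets = 0.208). Its mean over lines 7 and 8 was 1.25. It alone stayed when dim probe sets were left out, where the gene differed by 1.38 ± 0.18 (limma adjusted p = 0.105). Another 2 probe sets carry the symbols of both Hspa1a and Hspa1b and entered neither gene. They differed by 0.23 and 0.075, each lower in line 2 and higher in lines 7 and 8. Signals of the pair can mix where their transcripts are alike, so a split between them is uncertain.

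Hspa8, the constitutive HSP70 that also uncoats clathrin vesicles, was nearly level. It read 13.73, 13.81 and 13.80 with Ad-GFP and 13.81, 13.87 and 13.79 with Ad-Cre in lines 2, 7 and 8. The mean difference was 0.040 ± 0.05 (limma adjusted p = 0.764), within the spread over lines. The groups overlapped and line 8 was lower by a margin of -0.014. Of its 17 probe sets 4 were higher in all 3 lines and 0 lower in all 3, and the differences ran from -0.22 to 0.39. A further probe set carries the symbols of both Hspa8 and the small nucleolar RNA gene Snord14e, and entered neither gene. It read 10.05, 10.04 and 10.05 with Ad-GFP and 10.36, 10.32 and 10.33 with Ad-Cre, which is higher by 0.29 ± 0.14 (limma adjusted p over all probe sets = 0.525). Its Ad-Cre arrays were all above its Ad-GFP arrays, by nearly the same amount in each line.

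Hsph1 (HSP110) is a large relative of HSP70 that acts as its exchange factor and helps to dissolve aggregates. It read 9.85, 9.76 and 9.88 with Ad-GFP and 10.08, 10.06 and 9.98 with Ad-Cre in lines 2, 7 and 8. All Ad-Cre arrays were above all Ad-GFP arrays, by 0.23, 0.29 and 0.10, with a mean of 0.21 ± 0.10 (limma adjusted p = 0.464). Line 2 did not stand out here, and without it the mean was 0.20.

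Dnaja1 and Dnajb1 are J-domain proteins, which start ATP hydrolysis by HSP70. Dnaja1, the more constitutive one, read 10.38, 10.36 and 10.40 with Ad-GFP and 10.54, 10.52 and 10.49 with Ad-Cre in lines 2, 7 and 8. Its groups did not overlap and the difference was 0.14 ± 0.09 (limma adjusted p = 0.562). Dnajb1 (HSP40), the heat-inducible one, read 9.71, 9.68 and 9.60 with Ad-GFP and 9.76, 9.96 and 9.77 with Ad-Cre. Here too the groups did not overlap, and line 2 had the smallest difference of the lines, 0.049, against 0.28 and 0.17 in lines 7 and 8. The mean was 0.17 ± 0.10 (limma adjusted p = 0.547) and 0.23 without line 2.

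Hspb1 (HSP27), a small heat shock protein that binds actin and intermediate filaments, was close to the lower quartile of signals on the array. It read 6.55, 6.61 and 6.39 with Ad-GFP and 6.93, 6.62 and 6.64 with Ad-Cre in lines 2, 7 and 8. The groups were separate by a narrow margin, since line 7 was nearly unchanged, and the mean difference was 0.21 ± 0.10 (limma adjusted p = 0.476). It was 0.13 without line 2. The direction depended on the probe sets used. The brightest of 8, probe set 17286960, read -0.17, and the differences of the 8 ran from -0.18 to 0.46.

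Hsp90aa1, the stress-inducible HSP90 isoform, had a mean difference smaller than its spread over lines (0.032 ± 0.10; limma adjusted p = 0.918). It read 10.56, 10.67 and 10.77 with Ad-GFP and 10.41, 10.84 and 10.85 with Ad-Cre in lines 2, 7 and 8. Line 2 was lower with Ad-Cre and lines 7 and 8 were higher, and line 2 was the lowest line with either virus. Without line 2 the difference was 0.13. Its 14 probe sets ran from -0.67 to 0.48, with 4 higher and 2 lower in all 3 lines.

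**Figure D2:**
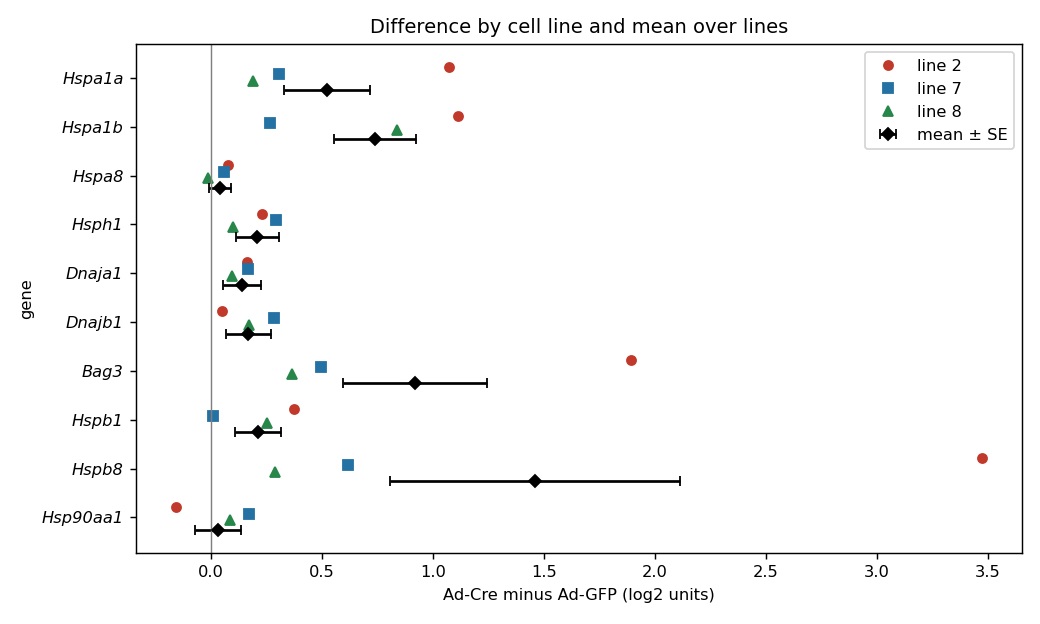
Ad-Cre minus Ad-GFP (log2 units, x axis) of each member in each cell line, with the mean over the 3 lines and its standard error from limma in black. Line 2 lies far to the right for Hspb8 (3.47) and Bag3 (1.89) and to the left of 0 for Hsp90aa1 (-0.16).

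In the gene signals of the members with large differences, the control cultures resembled each other more closely than the Ad-Cre cultures did. With Ad-GFP the range over lines was at most 0.38 for any member (Bag3), and it was 0.040 for Dnaja1. With Ad-Cre the range was 2.83 for Hspb8, 1.78 for Bag3 and 1.14 for Hspa1a, with line 2 the highest each time. For Hspa8, Hsph1 and Dnaja1 it reached at most 0.099. Probe sets of Hspa1a and Hspa1b went both ways. The SD over lines was 0.34 with Ad-GFP and 0.14 with Ad-Cre on 17344134 (Hspa1a), and 0.36 and 0.21 on 17344127 (Hspa1b). On their other probe sets it was larger with Ad-Cre, at 0.14 and 0.72 on 17344133, 0.09 and 0.41 on 17336821, and 0.20 and 0.50 on 17344128. Differences between lines, averaged over both viruses, were tested in the same model by a moderated F test. No member passed (limma adjusted p from 0.739 to 0.993), and 2 of 23152 genes did (0.00864%). The unadjusted p of this F test was not under 0.05 for any member.

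Among single probe sets, 13 of the 95 were higher at an unadjusted p under 0.05 (limma), against 5.26% of all probe sets, and 1 was lower, against 5.47%. None had an adjusted p under 0.05, as for all probe sets (0%). In all 3 lines 43 of the 95 were higher, against 17.5%, and 3 were lower, against 16.5%. Probe sets of 1 gene read the same RNA and are not replicates. Bag3 had 5 of its 6 probe sets among the 13 and all 6 between 0.52 and 1.13. The one Bag3 probe set outside, 17483739, differed by 2.35, 0.052 and -0.76 in lines 2, 7 and 8, and it was the dimmest of the 6. All 6 Hspb8 probe sets were higher in all 3 lines, from 0.31 to 2.03, and 2 of them were among the 13. The probe set at the low end, 17451820, was not dim, reading 7.98 to 8.04 with Ad-GFP and 8.29 to 8.35 with Ad-Cre, so line 2 did not stand out on it. In Dnaja1 a single probe set, 17412775, read 0.89 ± 0.23 with 1.0, 0.71 and 0.96 in lines 2, 7 and 8, while the median of its 15 was 0.15. Hsph1 had 2 among the 13, Hspa1b both of its own and Hspa1a 1, and the single lower one belonged to Hsp90aa1.

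**Figure D3:**
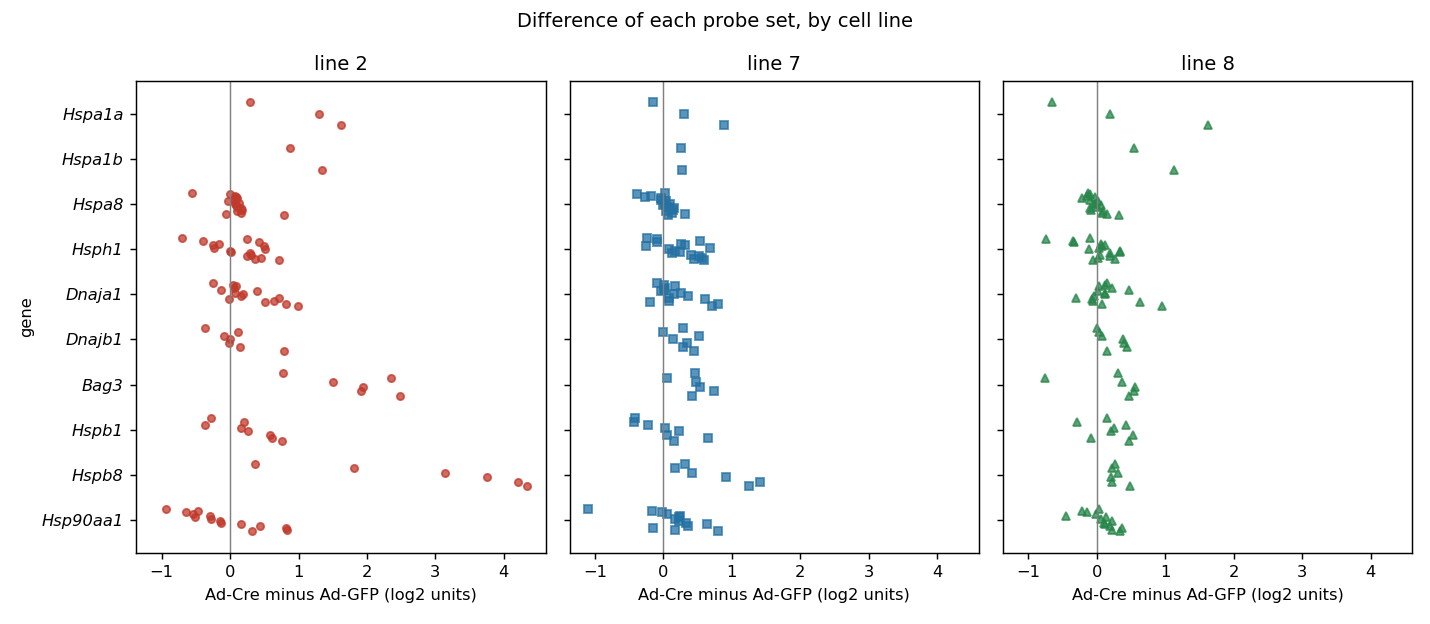
Ad-Cre minus Ad-GFP (log2 units, x axis) of each of the 95 probe sets, by gene (y axis) and cell line (panels). In line 2, 5 of 6 Hspb8 probe sets and 5 of 6 Bag3 probe sets lie beyond 1, whereas in line 8 the highest is at 0.56 for Bag3 and 0.49 for Hspb8.

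Other genes of the chaperone system averaged close to all genes. The 11 other lists hold 89 genes that have probe sets of their own. Their median difference was 0.028, against 0.025 for all genes. At an unadjusted p under 0.05 (limma), 1 of the 89 was higher, against 7.04% of all genes, and 3 were lower, against 5.58%. None passed the adjusted threshold. The higher one was Ier5, an immediate early gene that HSF1 also induces, at 0.66 ± 0.19 (adjusted p = 0.280), with 1.17, 0.40 and 0.42 in lines 2, 7 and 8, and 0.41 without line 2. The other measured genes of that list, Serpinh1, a collagen chaperone, and Dedd2, named after their values were seen, read 0.66 ± 0.28 and 0.28 ± 0.13. Without line 2 they read 0.35 and 0.17, and Serpinh1 was lower in line 8, at -0.13.

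Dnaja4, a J-domain protein related to Dnaja1, was the lowest in p of the 89 genes, and it was lower with Ad-Cre. It averaged 7.83 ± 0.05 (SD, n = 3) with Ad-GFP and 7.09 ± 0.17 after Ad-Cre. The mean difference was -0.74 ± 0.10 (limma adjusted p = 0.0980) and the groups did not overlap. Its adjusted p was under 0.05 (limma) in 2 of the 12 alternatives, at 0.0228 without line 2 (-0.72; 2.57% of all genes passed as lower) and 0.0337 with the line as a random block. Over all 12 it ran from 0.0228 to 0.999. Its brightest probe set read 0.24, so the direction rests on the others. The whole list of 11 cytosolic J-domain proteins had a median of 0.038.

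Chaperones of the endoplasmic reticulum leaned the other way from the members. Their median over 10 genes was -0.12, and 6 of 10 were lower in all 3 lines against 16.2% of all genes. Calr, calreticulin, which folds glycoproteins, read -0.26 ± 0.07 and Pdia4, a disulfide isomerase, -0.20 ± 0.06, with limma adjusted p of 0.263 and 0.322. Line by line the median was -0.29 in line 2, -0.022 in 7 and -0.019 in 8, so it was largest in line 2. Subunits of the TRiC chaperonin, which folds actin and tubulin, had a median of -0.077. It was -0.33 in line 2, where 1 of 8 was higher, and 0.033 and 0.040 in lines 7 and 8, where 7 and 6 were. In all 3 lines 1 of 8 was higher, Cct5 (0.17 ± 0.08; limma adjusted p = 0.450), against 22.1% of all genes.

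The remaining lists had medians between -0.046 and 0.22, with 0 genes at an unadjusted p under 0.05 (limma). Heat shock factors had a median of 0.16 over 5 genes. Hsf1 itself, which drives the inducible members, read 0.23 ± 0.09 (limma adjusted p = 0.404), higher in all 3 lines without overlap of the groups. Other small heat shock proteins had a median of 0.22 over 7 genes, with Hspb11 at 0.33 ± 0.16, or 0.17 without line 2, and lower in line 7 at -0.071. Other BAG proteins and HSP70 regulators had a median of 0.055, with St13, a co-chaperone that slows HSP70 release, at 0.17 ± 0.09, or 0.090 without line 2. In the list of other HSP90 proteins and co-chaperones (median -0.046) the phosphatase Ppp5c read 0.22 ± 0.09, and among other HSP70-type chaperones (median 0.075) Hspa13 read -0.42 ± 0.20, made of -0.98 in line 2 and -0.15 in each of the other lines. Grpel1, the exchange factor of mitochondrial HSP70, read 0.19 ± 0.09 in a list with a median of 0.065. Autophagy receptors and LC3 genes had a median of 0.16, with 0.33, -0.10 and 0.099 in lines 2, 7 and 8. Of the 7, 6 were higher in line 2 (55.3% of all genes), 0 in line 7 (55.4%) and 4 in line 8 (52%). Gabarapl1 read 0.17 ± 0.10, or 0.084 without line 2. Adjusted p for these named genes lay between 0.404 and 0.535.

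**Figure D4:**
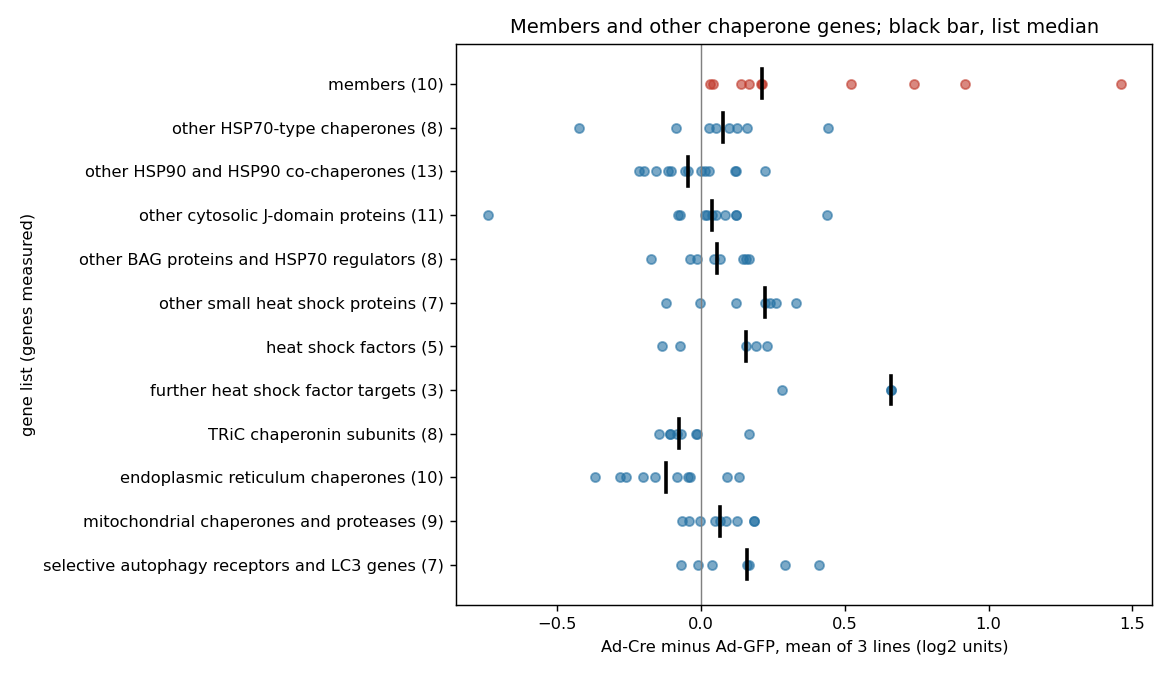
Ad-Cre minus Ad-GFP (log2 units, mean of 3 lines, x axis) of the 10 members (red) and of the genes of 11 other chaperone lists (blue), 1 point per gene, with the list median as a black bar and the number of genes measured in brackets. The members reach 1.46, whereas the highest listed gene, Ier5, is at 0.66 and the lowest, Dnaja4, at -0.74.

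Line 2 set the size of the largest differences, those of Hspb8 and Bag3, but not their direction. Without its arrays all 10 members averaged higher (54.8% of all genes did), from 0.021 for Hspa8 to 0.55 for Hspa1b, and 9 of 10 were higher in both remaining lines, against 34.4% of all genes. Hspb8 was then 1.37-fold, Bag3 1.35-fold, Hspa1b 1.47-fold and Hspa1a 1.19-fold higher. The Hspa1a value equals that of its dim probe set 17344133 (0.25), and its brightest, 17344134, averaged 1.25 log2 units over lines 7 and 8. At an unadjusted p under 0.05 (limma), 4 members were higher, Bag3, Hspa1b, Hspb8 and Dnajb1, against 9.5% of all genes. None had an adjusted p under 0.05, against 2.66% of all genes that passed as higher in that fit. Over the 12 alternatives the members higher at an unadjusted p under 0.05 (limma) numbered 0 to 5 (1.21% to 9.5% of all genes). Those higher in every line numbered 1 to 9 (11.9% to 34.4%), and 9 was reached only with 1 line left out, over both remaining lines. Bag3 and Hspa1a were not at an unadjusted p under 0.05 without the line as a block (0.0838 and 0.104, limma). Nor were they with it as a random block (0.0640 and 0.0795). The 2 that were, Hspa1b and Hsph1, stand against 6.75% and 8.1% of all genes. With the brightest probe set of each gene, 5 members were higher at an unadjusted p under 0.05 (limma), Hspa1a, Bag3, Hspa1b, Hspb8 and Hsph1, against 6.16% of all genes. With the virus labels of line 8 exchanged, 0 members were, against 1.21%, and 1, Hspa8, was higher in every line, against 11.9%.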

How the data were processed

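Total RNA from 6 cultures was read on 1 Affymetrix array each. Per the submitters' processing notes the deposited log2 signals come from Affymetrix Expression Console and RMA. RMA gives every array the same distribution of signals, which hides a shift common to most genes. The sources used here do not give its settings or the build. In the platform annotation 233753 probe sets have 1 symbol, 5106 several and 30892 none. The first were combined per gene (median of 8 each) by median polish with up to 20 iterations, and every probe set was also tested by itself.

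Ad-Cre was compared with Ad-GFP in limma 3.58.1 (R 4.3.3) with the cell line as a fixed block, a variance trend, two-sided p-values and a Benjamini-Hochberg threshold of 0.05 over all genes or all probe sets. The fit was also run on simulated data with known changes. The block comes from the series design, in which each line received both viruses. Deviations from the virus mean correlated across genes at 0.226, 0.163 and 0.333 for arrays of the same line and at -0.227 to 0.003 for different lines. Such deviations cancel over the lines of a virus, so the correlations of the same line and of different lines are not independent. p-values and standard errors rest on the spread between lines, from 1 culture each. limma also draws that spread towards the variance of genes or probe sets of like signal. Where the lines are close to each other, the standard error can so exceed what their own spread gives. The title and transduction label gave the virus. A description field is marked the opposite way in line 8, so an exchange of that line's labels was run. The members and gene lists were chosen with earlier results of these data known. All members are named, and of each other list the gene with the lowest p and up to 3 genes with an unadjusted p under 0.05 and 1 direction in all lines. Alternatives were no block, a random block, quantile or cyclic loess normalization, mean or brightest probe set, dim probe sets left out, no trend, exchanged labels and each line left out.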

Additional observations from a re-analysis of the deposited data

Results flagged for a closer look

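Hsp90aa1 differed in direction between lines, at -0.16 in line 2 and 0.17 and 0.083 in lines 7 and 8. Hspa8 was lower in line 8, at -0.014, and higher in lines 2 and 7. With 1 pair of arrays per line, neither difference between lines was tested.

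Probe sets shared with a second symbol stand outside the gene values. The one of Snord14e and Hspa8 was higher with Ad-Cre by 0.29, on every Ad-Cre array above every Ad-GFP array. The one of Mir207 and Dnaja1 was higher by 0.21 in the same way, with 0.47 in line 2, 0.029 in line 7 and 0.12 in line 8.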

How the results depend on the processing

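In limma with each line as a block, 0 genes and 0 probe sets had an adjusted p under 0.05, and 2923 genes had an unadjusted p under 0.05. Without the replicate block 82 genes and 67 probe sets passed, with the line as a random block 241 genes, and with the mean of probe sets 73, none of them a member. With 1 line left out the count of genes was 0 to 1211, the highest without line 2. The members kept an adjusted p above 0.05 in all 12 alternatives. Members higher at an unadjusted p under 0.05 (limma) numbered 3 (7.04% of all genes), and 2 without the replicate block (6.75%) or with a random block (8.1%). They numbered 4 with the mean of probe sets (7.05%) and 5 with the brightest probe set (6.16%). Of the 89 listed chaperone genes, 4 were at that level in either direction (12.6% of all genes). The count was 8 with a random block (14.3%) and 7 with the mean of probe sets (13.3%). With 1 line left out it was 3 to 10 (8.42% to 17.5%). With the line 8 labels exchanged the member count was 0 (1.21% of all genes) and the members higher in every line numbered 1 (11.9%). The listed genes numbered 1 (1.81%) and the members' median was 0.11. Directions turned for Hsp90aa1 with the brightest probe set (-0.017), the exchanged labels (-0.024) and with 1 line left out (-0.037 to 0.13, below 0 without line 7), and with the brightest probe set for Hspb1 (-0.17) and Dnaja4 (0.24). The cause was not tested. The number of arrays limits the precision, and the gene signals of Hspa1a and Hspb1 are dim.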
